A study of Mus with 6 samples.

Results

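The enzymes of the tricarboxylic acid cycle were examined in RNA-Seq data from mouse CD4+ T cells that were activated in culture while VEGF-B, a secreted growth factor, was neutralized. The genes were taken from the deposited expression table by symbol, and 9 of 10995 listed genes matched: Cs, Idh2, Idh3a, Idh3g, Ogdh, Suclg1, Sucla2, Fh1 and Mdh2. The rule used symbols alone, and no symbol was missing. Naive CD4+ T cells from the spleen of wild-type (WT) mice were stimulated for 3 days with anti-CD3 at 5 μg/mL and anti-CD28 at 2 μg/mL, antibodies that engage the T cell receptor and its costimulatory receptor, together with IL-2 at 100 U/mL, a T cell growth factor. The cells of both groups received these agents, so there was no unstimulated group. One group received anti–VEGF-B and the other normal goat IgG, each at 1 μg/mL, with 3 libraries per group. The labels and methods did not state whether the 3 libraries came from separate mice or cultures, or the age of the mice, so that p-values measure the spread between libraries, which may be technical.

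In the mitochondrial matrix, citrate synthase joins acetyl-CoA to oxaloacetate, and the following enzymes oxidize the resulting citrate back to oxaloacetate, releasing carbon dioxide and passing electrons to NAD+ and to the respiratory chain. Several steps need more than one gene product: NAD-dependent isocitrate dehydrogenase is built from Idh3a, Idh3b and Idh3g, the 2-oxoglutarate dehydrogenase complex from Ogdh, Dlst and Dld, and succinate-CoA ligase from Suclg1 with either Sucla2 or Suclg2. T cells that leave the naive state raise both glycolysis and mitochondrial metabolism, and the cycle then supplies citrate for lipid synthesis and aspartate for nucleotides in addition to reducing power.

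The deposited values were FPKM, fragment counts scaled for the length of the transcript and the size of the library, which can be compared between genes. The FPKM summed to between 260058 and 276622 per library, and the number of reads behind them is unknown. The median FPKM of the tested genes was between 5.43 and 5.67 with anti–VEGF-B and between 6.20 and 7.08 with IgG, and genes at 0 numbered 59 to 91 per library with anti–VEGF-B against 36 or 37 with IgG. Of 12 T cell markers 9 were in the table, and they summed to between 573 and 728 FPKM. Of the CD8+ T cell markers, Cd8a was at most 0.182 FPKM and Cd8b1 was between 2.27 and 4.51 FPKM. Cd79b, the one B cell marker found of 6, was at most 1.34 FPKM. The 3 myeloid markers found of 6 summed to between 3.95 and 5.11 FPKM in 5 libraries and to 19.8 FPKM in IgG replicate 3, where Lyz2 reached 16.4 FPKM. No gene of the NK cell or erythroid lists was in the table. Il2ra, the IL-2 receptor α chain that activated T cells display, fell with anti–VEGF-B by 0.97 on the log2 scale (adjusted p = 0.00665 in limma), with 51.8 to 65.7 FPKM against 94.9 to 149.7 FPKM. Of the other T cell markers, Cd3e (-0.51, 0.0197) and Cd5 (-0.38, 0.0343) were also called lower. Cd3d, Cd3g, Cd247, Cd4, Lck and Cd28 were not called, with values from -0.43 (Cd3g) to 0.12 (Cd28).

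The 9 cycle genes were all expressed, at mean levels between 2.73 and 46.9 FPKM with IgG. In the IgG libraries Cs had the highest mean (46.9 ± 4.03 FPKM, SD, n = 3), followed by Mdh2 (38.9 ± 1.81 FPKM), Idh3g (17.0 ± 1.93 FPKM) and Ogdh (11.0 ± 1.53 FPKM). Suclg1 (7.39 ± 1.10 FPKM), Sucla2 (6.23 ± 0.542 FPKM), Fh1 (4.38 ± 0.234 FPKM), Idh2 (3.13 ± 0.628 FPKM) and Idh3a (2.73 ± 0.408 FPKM) lay below them. The libraries of neighbouring genes in this order did not overlap, except for Suclg1 with Sucla2 and Idh2 with Idh3a. In the anti–VEGF-B libraries these pairs overlapped too, and so did Cs with Mdh2. The first enzyme of the cycle, citrate synthase, and the last, malate dehydrogenase, therefore had the most mRNA per transcript length of the 9, and together they made up 65.3%, 59.1% and 62.6% of the summed FPKM of the 9 genes in IgG replicates 1 to 3 and 66.8%, 67.1% and 66.2% in anti–VEGF-B replicates 1 to 3. The sum itself was 140.2, 142.6 and 130.2 FPKM with IgG and 135.4, 134.2 and 126.8 FPKM with anti–VEGF-B, so that the groups overlapped. The 2 subunits of NAD-dependent isocitrate dehydrogenase among the 9 genes stood far apart: the ratio of Idh3a, its catalytic subunit, to Idh3g, a regulatory subunit, was 0.160 ± 0.00825 with IgG (SD, n = 3).

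**Figure D1:**
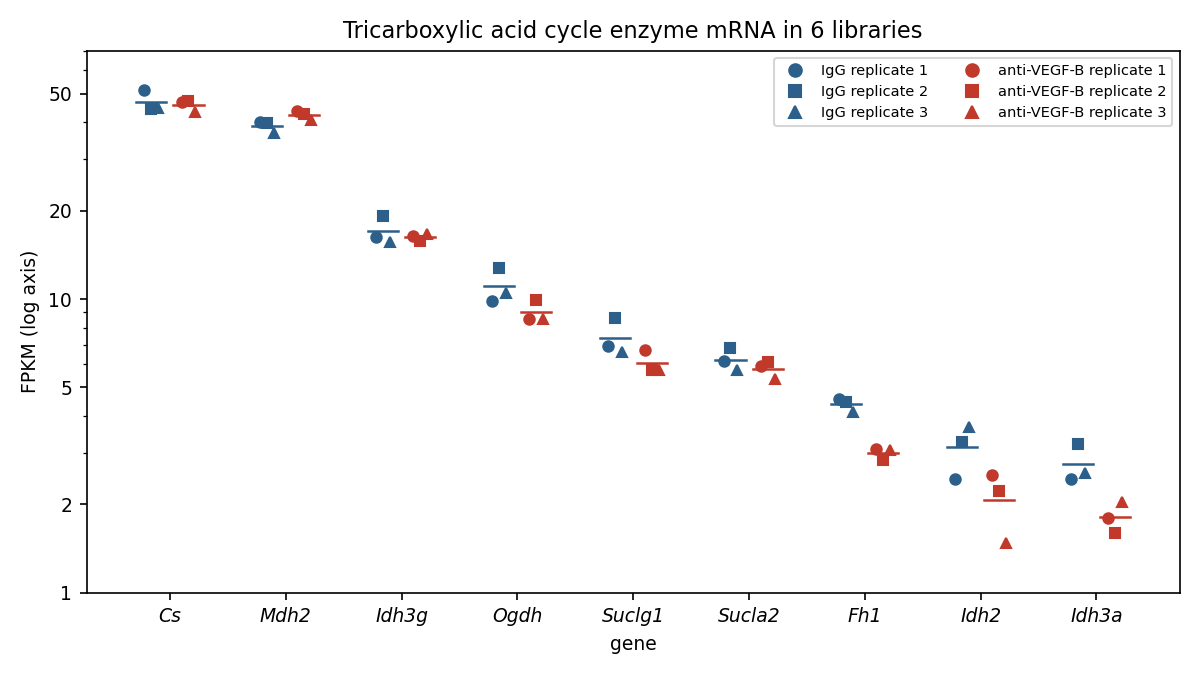
Level of the 9 cycle genes in FPKM (log axis) in each of the 3 IgG libraries (blue) and 3 anti–VEGF-B libraries (red), ordered by the IgG mean. Horizontal lines are group means, and the 3 replicates have different symbols. The anti–VEGF-B points lie below all IgG points for Fh1 and Idh3a, and above all of them for Mdh2, whose difference was not called.

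The question put to these genes was whether their mRNA differed when VEGF-B was neutralized during activation. Fh1, fumarate hydratase, and Idh3a fell with anti–VEGF-B, by 0.43 and 0.41 on the scale of log2(FPKM + 1), none of the 9 rose, and 7 did not pass the test. The test was limma over 8816 genes, those averaging 1 FPKM or more over all 6 libraries, with Benjamini-Hochberg adjustment over all of them and a call at an adjusted p under 0.05. All 9 cycle genes were among the genes tested. On this scale the change of a gene with a low FPKM is understated. In RNA from a whole culture, fewer cells of a type and less RNA per cell cannot be told apart.

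These counts were close to those over all genes. Of the tested genes 28.7% were called, 23.8% lower and 4.87% higher, against 2 of 9 cycle genes (22.2%) lower. The median log2 fold change was -0.25 over the 9 genes and -0.15 over all tested genes, so that the cycle genes lay at -0.095 relative to the whole. Values below 0 were found for 8 of the 9 genes and 71.2% of all genes. The number below 0 was 6 after quantile normalization, Actb scaling or cyclic loess and 5 after centring on the median, where the median of all genes was 0.0077, -0.096, 0.0019 and 0.049. These scalings also moved the calls over all genes, from 2099 lower and 429 higher as deposited to 913 and 880 (quantile), 1309 and 365 (Actb), 938 and 852 (loess) and 807 and 1365 (median). The groups did not overlap for 3 cycle genes, Fh1 and Idh3a with lower and Mdh2 with higher values under anti–VEGF-B, where 38.5% of all tested genes were lower and 10.5% higher without overlap.

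**Figure D2:**
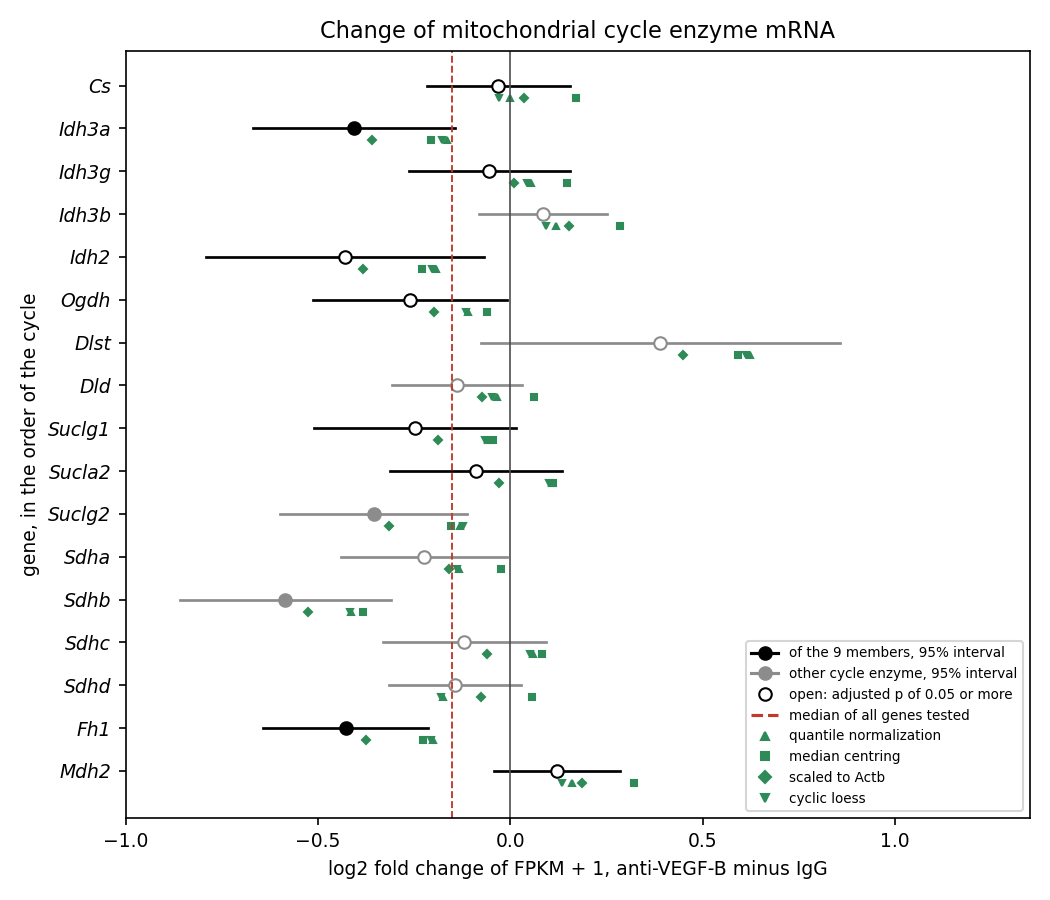
Difference between anti–VEGF-B and IgG in log2(FPKM + 1) for the 9 cycle genes (black) and 8 other mitochondrial cycle genes (gray), with 95% confidence intervals from limma, in the order of the reactions. Filled circles are called, the dashed line is the median of all tested genes (-0.15), and green symbols give the difference after 4 other scalings between libraries. Fh1, Idh3a and Idh2 lie left of -0.4 as deposited and nearer to 0 after each other scaling, while Cs, Idh3g, Sucla2, Dld, Sdhc and Sdhd change sign after at least one of them.

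Fh1 (ENSMUSG00000026526.14, chr1:175600374-175625635 in GRCm38, minus strand) encodes fumarate hydratase, which adds water to fumarate to give malate. It had 4.57, 4.45 and 4.12 FPKM in IgG replicates 1 to 3 and 3.09, 2.84 and 3.06 FPKM in anti–VEGF-B replicates 1 to 3. The groups were clearly apart, with the highest anti–VEGF-B library more than 1 FPKM under the lowest IgG library. The mean changed by -31.6%, from 4.38 ± 0.234 to 3.00 ± 0.135 FPKM (SD, n = 3), and the log2 fold change was -0.43 (SE 0.0949, 95% interval -0.64 to -0.21, adjusted p = 0.0139 in limma). Relative to the median of all tested genes it was -0.28. The call was lost without anti–VEGF-B replicate 3 (-0.44, adjusted p = 0.0506) and after quantile normalization (-0.20, 0.136), centring on the median (-0.23, 0.0988) and cyclic loess (-0.21, 0.132).

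Idh3a (ENSMUSG00000032279.11, chr9:54586334-54604661, plus strand) encodes the catalytic subunit of the NAD-dependent isocitrate dehydrogenase, which turns isocitrate into 2-oxoglutarate. It was the lowest of the 9 genes, with 2.45, 3.20 and 2.56 FPKM with IgG and 1.80, 1.60 and 2.03 FPKM with anti–VEGF-B. Every anti–VEGF-B library was below every IgG library, and IgG replicate 2 stood highest. The mean changed by -33.8% and the log2 fold change was -0.41 (SE 0.117, 95% interval -0.67 to -0.14, adjusted p = 0.0312 in limma), or -0.26 relative to all tested genes. The call was kept under 4 of 15 alternative settings, against 10 of 15 for Fh1. Of the fits without 1 library it was kept without IgG replicate 1, while the adjusted p was 0.0779 without IgG replicate 2, 0.0565 without IgG replicate 3, with a larger log2 fold change of -0.44, and 0.0750, 0.0934 and 0.0598 without anti–VEGF-B replicates 1, 2 and 3. It was lost under each other scaling too, with -0.16 (quantile, adjusted p = 0.256), -0.21 (median, 0.153), -0.18 (loess, 0.219) and -0.36 (Actb, 0.0581).

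Idh2 (ENSMUSG00000030541.16, chr7:80094846-80115392, minus strand) encodes the NADP-dependent isocitrate dehydrogenase of mitochondria, which carries out the same conversion as the NAD-dependent enzyme and can run in reverse. It had 2.44, 3.26 and 3.68 FPKM with IgG and 2.51, 2.23 and 1.48 FPKM with anti–VEGF-B. Its mean differed by as much as that of Idh3a (-33.8%), but its libraries were spread more widely, and IgG replicate 1 lay inside the range of the anti–VEGF-B group. The log2 fold change of -0.43 (SE 0.161, 95% interval -0.79 to -0.069) was not called (adjusted p = 0.0711 in limma). Without IgG replicate 1 it was called (-0.56, adjusted p = 0.0379), whereas it was -0.28 (0.231) without anti–VEGF-B replicate 3, which had the lowest value, and -0.33 (0.190) without IgG replicate 3, which had the highest.

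Ogdh and Suclg1 act on consecutive intermediates, 2-oxoglutarate and succinyl-CoA, and their means changed by -18.3% and -18.2% with anti–VEGF-B without passing the test. Ogdh (ENSMUSG00000020456.17, chr11:6291633-6356642, plus strand), the first component of the 2-oxoglutarate dehydrogenase complex, had 9.88, 12.8 and 10.5 FPKM with IgG and 8.57, 9.95 and 8.54 FPKM with anti–VEGF-B. The groups overlapped by a single pair, anti–VEGF-B replicate 2 above IgG replicate 1, and the log2 fold change was -0.26 (SE 0.112, 95% interval -0.51 to -0.0088, adjusted p = 0.105 in limma). Suclg1 (ENSMUSG00000052738.14, chr6:73248382-73276911, plus strand), the α subunit shared by both succinate-CoA ligases, had 6.93, 8.65 and 6.59 FPKM with IgG and 6.68, 5.72 and 5.73 FPKM with anti–VEGF-B. Here anti–VEGF-B replicate 1 lay between IgG replicates 3 and 1, and the log2 fold change was -0.25 (SE 0.117, 95% interval -0.51 to 0.016, adjusted p = 0.134 in limma). Relative to all tested genes the values were -0.11 for Ogdh and -0.095 for Suclg1. Sucla2 (ENSMUSG00000022110.13, chr14:73525319-73596142, plus strand), the ADP-forming β subunit that pairs with Suclg1, had 6.15, 6.80 and 5.72 FPKM with IgG and 5.91, 6.09 and 5.36 FPKM with anti–VEGF-B, with overlapping groups and a log2 fold change of -0.089 (SE 0.0990, 95% interval -0.31 to 0.13, adjusted p = 0.512 in limma).

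The remaining genes, Cs, Idh3g and Mdh2, are the most abundant of the 9, and none passed the test. Cs (ENSMUSG00000005683.8, chr10:128337734-128362479, plus strand), citrate synthase, had 51.5, 44.4 and 44.7 FPKM with IgG and 46.8, 47.2 and 43.3 FPKM with anti–VEGF-B. The groups overlapped throughout apart from the high IgG replicate 1, and the log2 fold change of -0.031 (SE 0.0827, adjusted p = 0.791 in limma) had an interval from -0.22 to 0.16. Idh3g (ENSMUSG00000002010.17, chrX:73778963-73786897, minus strand), the regulatory γ subunit that accompanies Idh3a, had 16.2, 19.2 and 15.6 FPKM with IgG and 16.4, 15.8 and 16.7 FPKM with anti–VEGF-B. The anti–VEGF-B values all lay inside the IgG range, and the log2 fold change was -0.054 (SE 0.0928, 95% interval -0.26 to 0.15, adjusted p = 0.676 in limma). For these 2 genes the interval excluded a change of the size fitted for Fh1, although the sign turned above 0 for both after median centring (0.17 and 0.15) and Actb scaling (0.035 and 0.0099), and for Idh3g also after quantile normalization (0.054) and cyclic loess (0.044). Mdh2 (ENSMUSG00000019179.10, chr5:135778480-135790398, plus strand), the mitochondrial malate dehydrogenase that regenerates oxaloacetate, was the one gene with a mean above that of IgG. It had 40.0, 39.8 and 36.8 FPKM with IgG and 43.6, 42.8 and 40.6 FPKM with anti–VEGF-B. All 3 anti–VEGF-B libraries were above all 3 IgG libraries, by a mean of 8.89%. The log2 fold change of 0.12 (SE 0.0726, 95% interval -0.043 to 0.28) was not called (adjusted p = 0.227 in limma). It was called once each library was centred on its median (0.32, adjusted p = 0.0217), and relative to all tested genes it was 0.27.

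The 9 genes were also set against genes of a like level, since the median difference over all genes varied with the level. Idh2, Idh3a and Fh1, with means under 5 FPKM, had log2 fold changes of -0.43, -0.41 and -0.43. Idh3g, Ogdh, Suclg1 and Sucla2, between 5 and 20 FPKM, had values from -0.26 to -0.054, and Cs and Mdh2, over 20 FPKM, had -0.031 and 0.12. Within the middle class Sucla2, at a lower level than Ogdh, had the smaller difference. The limits of 5 and 20 FPKM were set after the values were seen. Over all tested genes the median was -0.22 for 3889 genes under 5 FPKM, of which 27.3% were called lower and 1.98% higher. It was -0.14 for 3089 genes between the limits, with 24.8% lower and 4.05% higher, and 0.0063 for 1838 genes over 20 FPKM, with 14.7% lower and 12.4% higher. Set against the median of their own level class, the differences of Fh1 and Idh3a were -0.20 and -0.18, that of Ogdh -0.12, and those of Cs and Mdh2 -0.038 and 0.11. The part of the level in the calls of Fh1 and Idh3a was not tested.

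**Figure D3:**
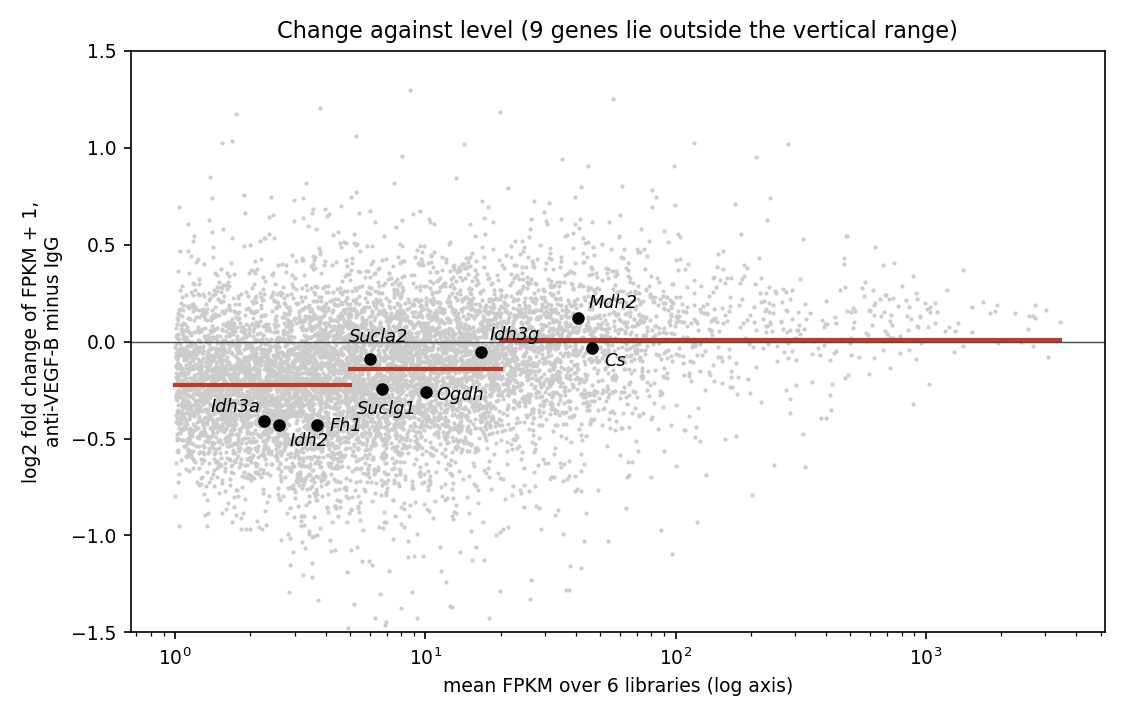
Difference between anti–VEGF-B and IgG in log2(FPKM + 1) against the mean FPKM over the 6 libraries (log axis) for the tested genes (gray) and the 9 cycle genes (black). Red lines are the medians of the 3889, 3089 and 1838 genes in each level class, and 9 genes lie outside the vertical range. Idh3a, Idh2 and Fh1 sit among the lowly expressed genes, whose median is -0.22, and Cs and Mdh2 among the highly expressed ones, whose median is 0.0063.

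Shares and ratios of FPKM within a library are not changed by a single factor per library, although they are by scalings that act on each level separately, such as quantile normalization and cyclic loess. Mdh2 made up 28.5%, 27.9% and 28.2% of the summed FPKM of the 9 genes in IgG replicates 1 to 3 and 32.2%, 31.9% and 32.0% in anti–VEGF-B replicates 1 to 3. The replicates lay close together and the groups were apart, with a difference of 3.80 percentage points between 28.2% ± 0.309 and 32.0% ± 0.185 (SD, n = 3). Fh1 made up 3.18% ± 0.0734 with IgG and 2.27% ± 0.147 with anti–VEGF-B, and Idh3a 1.98% ± 0.250 and 1.37% ± 0.209, both without overlap. Suclg1 was also lower without overlap (5.36% ± 0.616 against 4.57% ± 0.340), but its nearest libraries were both at 4.94%. For these 4 genes the exact two-sided permutation p was 0.1, the smallest that 3 against 3 libraries allow, and 0.225 after Benjamini-Hochberg adjustment over the 9 shares. Of all tested genes, taken by their own FPKM, 38.5% were lower and 10.5% higher without overlap. The 9 shares of a library are parts of the same sum, so a higher share of Mdh2 goes with lower shares of others. The shares of Cs, Idh2, Idh3g, Ogdh and Sucla2 overlapped, with Cs at 34.1% and 34.6% and Idh3g at 12.3% in both groups.

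Of 5 ratios of paired cycle genes, 2 were apart between the groups. The share over other gene pairs was not computed. Of all tested genes taken singly, 38.5% were lower and 10.5% higher without overlap. Fh1 to Mdh2, the enzymes that make and use malate, was 0.114, 0.112 and 0.112 with IgG and 0.0709, 0.0665 and 0.0753 with anti–VEGF-B, a log2 difference of -0.67. Idh3a to Idh3g was 0.151, 0.167 and 0.163 with IgG and 0.110, 0.101 and 0.122 with anti–VEGF-B, a log2 difference of -0.53. In both ratios the IgG libraries were nearly alike and each anti–VEGF-B library was lower, with an exact two-sided permutation p of 0.1, which was 0.25 after adjustment over the 5 ratios. Both set a gene under 5 FPKM against a more abundant one. Over all tested genes the median log2 fold change was -0.22 under 5 FPKM, -0.14 in the class of Idh3g and 0.0063 in that of Mdh2. The part of the level in these ratios was not tested. On the log2(FPKM + 1) scale the fitted change of Fh1 minus that of Mdh2 was -0.55 as deposited, -0.36 with quantile normalization and -0.34 with loess, and that of Idh3a minus Idh3g was -0.35, -0.22 and -0.22. Sucla2 to Suclg1 (log2 difference 0.18) and Cs to Idh2 (0.58) overlapped, each with an exact permutation p of 0.2 and 0.25 after adjustment. Idh2 to Idh3a, the mitochondrial NADP-dependent enzyme against the NAD-dependent one, had close means but a wide spread (log2 ratio 0.18 ± 0.297 with IgG and 0.17 ± 0.543 with anti–VEGF-B, exact permutation p = 0.8). Anti–VEGF-B replicate 3 alone was low, at -0.46 against 0.48 in the other 2 libraries of its group. The close means therefore do not show that the ratio was unchanged.

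A further 8 ratios with other subunits of the same enzymes were formed after the values were seen. They are given with no test and with no share over other gene pairs. Idh3a, Fh1 and Suclg2 were set against more abundant genes here, and the part of the level was not tested. Idh3a was lower against Idh3b, the other regulatory subunit, as well (0.0648 ± 0.0114 with IgG and 0.0403 ± 0.00473 with anti–VEGF-B, without overlap), whereas Idh3g to Idh3b overlapped (0.403 and 0.363). Fh1 was lower against Cs without overlap (0.0937 ± 0.00583 and 0.0656 ± 0.00522). Of the succinate dehydrogenase subunits, Sdhb to Sdha was lower without overlap (0.469 ± 0.0313 and 0.349 ± 0.0277), and Sdhc to Sdha and Sdhd to Sdha overlapped. Suclg2 to Sucla2, the GTP-forming against the ADP-forming β subunit, was lower without overlap (0.296 ± 0.0136 and 0.211 ± 0.0139). Dlst to Ogdh was 0.255, 0.268 and 0.246 with IgG and 0.292, 0.537 and 0.543 with anti–VEGF-B, so that 2 of the 3 anti–VEGF-B libraries stood high and replicate 1 lay just above the IgG libraries.

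**Figure D4:**
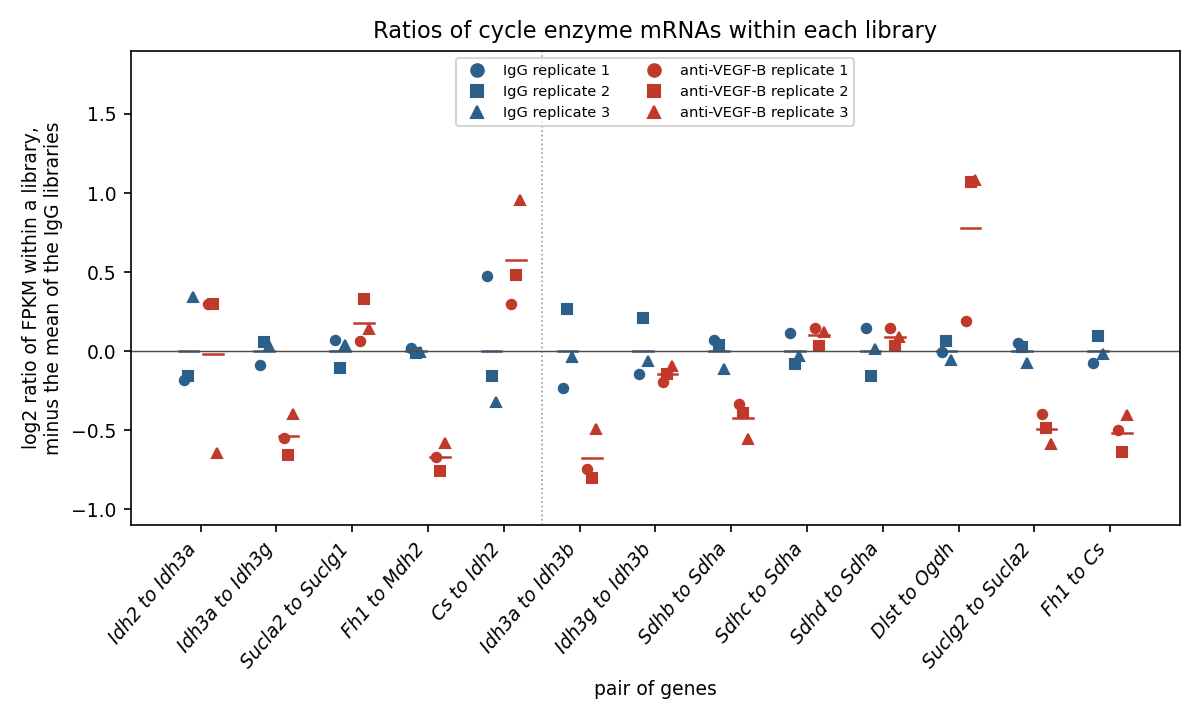
Log2 ratio of FPKM of gene pairs within each library, minus the mean of the IgG libraries, for IgG (blue) and anti–VEGF-B (red). Horizontal lines are group means. The 5 ratios left of the dotted line are between the 9 cycle genes, and the 8 right of it were formed after the values were seen. Idh3a to Idh3g and Fh1 to Mdh2 lie below 0 in all 3 anti–VEGF-B libraries, at means of -0.53 and -0.67, and Idh2 to Idh3a is spread on both sides.

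The other 9 genes of the mitochondrial cycle gave a similar count, with 2 called lower (22.2%), none higher and 7 not called. Among all tested genes 23.8% were called lower and 4.87% higher. Sdhb, the iron-sulfur subunit of succinate dehydrogenase, fell from 9.24, 11.2 and 8.52 FPKM with IgG to 6.77, 6.19 and 5.33 FPKM with anti–VEGF-B. Its groups were well apart, and the log2 fold change was -0.59 (SE 0.122, 95% interval -0.86 to -0.31, adjusted p = 0.0119 in limma). This call held under each other scaling, at its smallest after median centring (-0.38, adjusted p = 0.0255), and without each library in turn, with an adjusted p of at most 0.0480, and was lost only in the fit that did not moderate the variance (0.0850). Suclg2, the GTP-forming β subunit of succinate-CoA ligase, fell from 1.88, 2.04 and 1.60 FPKM to 1.33, 1.28 and 1.05 FPKM, near the filter (-0.36, SE 0.108, adjusted p = 0.0373 in limma). Its call was kept in 1 of the 6 fits without a library, that without IgG replicate 3, with an adjusted p of 0.137 without anti–VEGF-B replicate 3. It was lost under each other scaling, with -0.13 (quantile, adjusted p = 0.332), -0.15 (median, 0.246), -0.12 (loess, 0.362) and -0.32 (Actb, 0.0697).

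Among the others, the flavoprotein subunit Sdha (-0.22, adjusted p = 0.102 in limma) and the dihydrolipoamide dehydrogenase Dld (-0.14, 0.184) had all 3 anti–VEGF-B values below all 3 IgG values but did not pass the test. The same held, called or not, for 38.5% of all tested genes, which were lower without overlap. The membrane anchors Sdhc (-0.12, 0.354) and Sdhd (-0.14, 0.174) and the subunit Idh3b (0.085, 0.396) overlapped. Dlst, the succinyltransferase of the 2-oxoglutarate dehydrogenase complex, had 2.52, 3.42 and 2.58 FPKM with IgG and 2.50, 5.34 and 4.63 FPKM with anti–VEGF-B. One anti–VEGF-B library, replicate 1, was thus at the IgG level, and the log2 fold change of 0.39 (adjusted p = 0.176 in limma) became 0.65 (0.0258) without it. In 3 enzymes the subunits differed in their calls: Idh3a but not Idh3g or Idh3b, Sdhb but not Sdha, Sdhc or Sdhd, and Suclg2 but not Suclg1 or Sucla2. Of these calls only that of Sdhb held under each other scaling. Idh3a (2.73 FPKM with IgG) and Suclg2 (1.84 FPKM) were the lowest subunits of their enzymes, and 27.3% of all tested genes under 5 FPKM were called lower. A difference in calls was not tested as such, apart from the ratios above. Over all 18 mitochondrial cycle genes, 4 were called lower and none higher, where 23.8% of all tested genes were called lower and 4.87% higher. The median log2 fold change was -0.18 for the 18 genes against -0.15 for all tested genes.

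Lists of neighbouring genes gave calls in both directions, as did all tested genes, of which 23.8% were called lower and 4.87% higher. The lists are short, and their counts were not tested against these shares. Of the cytosolic counterparts of cycle enzymes and the carriers that move citrate, malate and aspartate, 11 of 12 were in the table and 10 were tested, with 4 called lower, 1 higher and a median of -0.33. Idh1, the cytosolic NADP-dependent isocitrate dehydrogenase, fell from 2.41, 2.98 and 2.47 FPKM to 1.62, 1.51 and 1.43 FPKM (-0.52, adjusted p = 0.0110 in limma). Got1, the cytosolic aspartate aminotransferase, rose from 96.5, 78.9 and 91.6 FPKM to 116, 119 and 125 FPKM (0.43, 0.0111). The calls of both were kept without each library in turn and under the other scalings, where Idh1 was at its smallest after quantile normalization (-0.28, adjusted p = 0.0427). The 2-oxoglutarate carrier Slc25a11 (-0.49, adjusted p = 0.0286 in limma), the cytosolic aconitase Aco1 (-0.44, 0.0224) and the aspartate-glutamate carrier Slc25a12 (-0.38, 0.0350) also fell. Of the 6 fits without 1 library, Slc25a11 kept its call in 2, Aco1 in 3 and Slc25a12 in 1. The highest adjusted p was without anti–VEGF-B replicate 3 for Slc25a11 and Aco1 (0.0928 and 0.0856) and without anti–VEGF-B replicate 1 for Slc25a12 (0.108). All 3 calls were also lost after quantile normalization, median centring and cyclic loess, with adjusted p from 0.0723 to 0.0882 for Slc25a11 (-0.29 to -0.28), 0.0964 to 0.120 for Aco1 (-0.24 to -0.22) and 0.196 to 0.215 for Slc25a12 (-0.18 in each), and that of Slc25a12 after Actb scaling (-0.32, 0.116). Mdh1, the cytosolic partner of Mdh2, was not called (0.12, 0.288).

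For glutamine and other carbon entering the cycle, 16 of 21 listed genes were in the table and 14 were tested, with 4 called lower, 2 higher and a median of -0.14. Slc1a5, a glutamine transporter of the plasma membrane, fell from 15.8, 20.4 and 15.3 FPKM to 8.82, 9.41 and 8.18 FPKM, the largest difference in this list (-0.88, adjusted p = 0.00488 in limma), and kept its call without each library. Me2, a mitochondrial malic enzyme that turns malate into pyruvate, rose from 154, 148 and 153 FPKM to 172, 179 and 183 FPKM (0.23, 0.0322). Mcee, which serves the route from propionyl-CoA to succinyl-CoA, also rose (0.28, 0.0365), and the aminotransferases Gpt2 (-0.36, 0.0324) and Oat (-0.23, 0.0460) fell. Of the 6 fits without 1 library, Mcee and Oat were called in 0, and Me2 and Gpt2 in 1 each. The highest adjusted p in these limma fits was 0.123 for Me2, 0.125 for Mcee and 0.148 for Oat, each without anti–VEGF-B replicate 3. For Gpt2 it was 0.0992, without anti–VEGF-B replicate 1. Gpt2 and Oat lost their calls under each other scaling, with Gpt2 at -0.12 (quantile, adjusted p = 0.322), -0.16 (median, 0.200), -0.14 (loess, 0.278) and -0.31 (Actb, 0.0971), and Oat at -0.19 (0.116), -0.034 (0.819), -0.22 (0.0720) and -0.17 (0.290). Me2 lost its call after quantile normalization (0.16, adjusted p = 0.0613), loess (0.16, 0.0729) and Actb scaling (0.30, 0.0777), and Mcee after Actb scaling (0.34, 0.0600).

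Of the genes for pyruvate import and the pyruvate dehydrogenase complex, which supplies acetyl-CoA to citrate synthase, 12 of 13 were in the table and 11 were tested, with 4 called lower, 1 higher and a median of -0.15. Pdhx, which anchors a component of the complex, fell from 1.55, 1.97 and 1.70 FPKM to 0.885, 0.881 and 0.764 FPKM (-0.57, adjusted p = 0.00832 in limma) and kept its call without each library and under the other scalings, at its smallest with loess (-0.34, 0.0257). The phosphatase subunit Pdp2 (-0.59, 0.0161), the acetyltransferase Dlat (-0.33, 0.0435) and the catalytic subunit Pdha1 (-0.30, 0.0417) fell, and the inhibitory kinase Pdk3 rose (0.27, 0.0281). Without anti–VEGF-B replicate 3 these 4 calls were lost, with adjusted p of 0.0594, 0.151, 0.143 and 0.108. Of the 6 fits without 1 library, Pdp2 kept its call in 4, Pdha1 and Pdk3 in 2 each and Dlat in 1. Dlat and Pdha1 were also lost under each other scaling, with Dlat at -0.086 (quantile, adjusted p = 0.455), -0.12 (median, 0.286), -0.098 (loess, 0.398) and -0.28 (Actb, 0.111), and Pdha1 at -0.22 (0.101), -0.094 (0.479), -0.24 (0.0875) and -0.23 (0.133). Pdp2 was lost after quantile normalization (-0.35, 0.0548) and loess (-0.36, 0.0519), and Pdk3 after Actb scaling (0.34, 0.0626). The list of factors that assemble or modify cycle enzymes had 11 of 12 genes in the table, of which 6 passed the filter, with 1 called: Iscu, the scaffold of iron-sulfur clusters, fell from 2.15, 2.76 and 2.39 FPKM to 1.62, 1.38 and 1.17 FPKM (-0.52, 0.0139 in limma). Its call was lost without anti–VEGF-B replicate 3 (adjusted p = 0.0586), and under loess (-0.29, 0.0561) or quantile normalization (-0.29, 0.0581). Of the other 2-oxoacid dehydrogenases, 4 of 6 genes were in the table and 3 were tested. Dbt, the acyltransferase of the branched-chain complex and a counterpart of Dlst, fell from 2.09, 3.63 and 2.48 FPKM to 1.11, 1.21 and 0.434 FPKM (-0.97, adjusted p = 0.0111 in limma), with the call kept without each library.

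**Figure D5:**
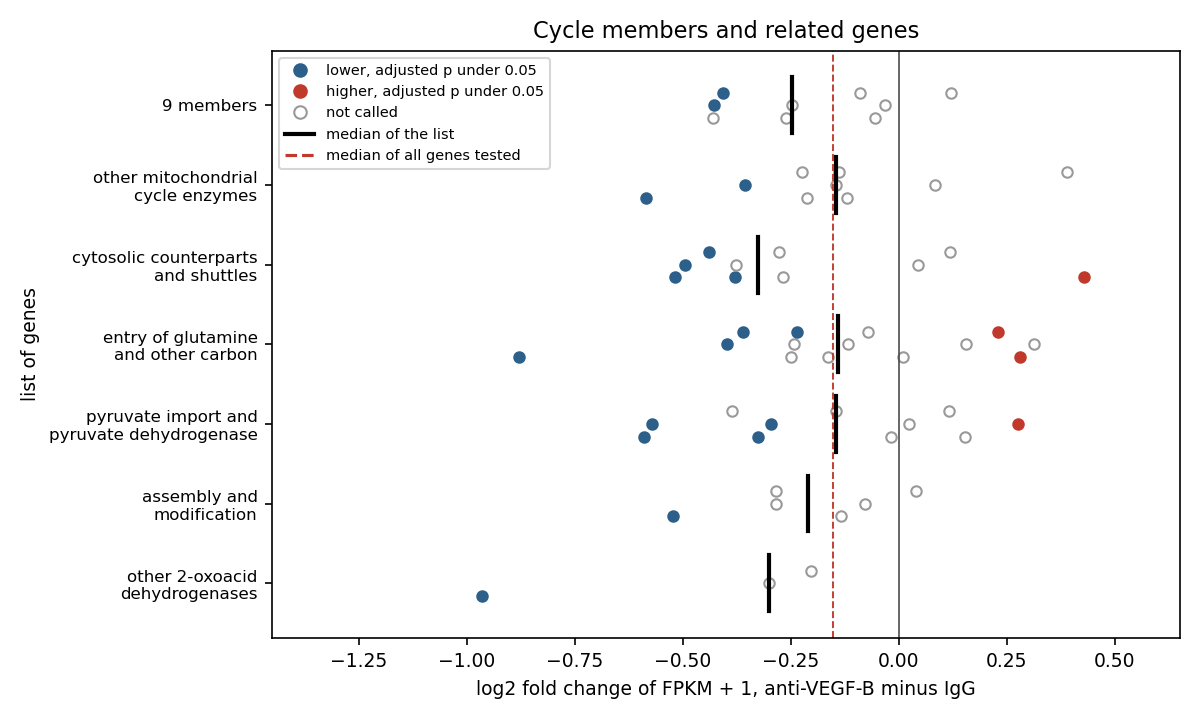
Difference between anti–VEGF-B and IgG in log2(FPKM + 1) for the tested genes of each list, with the 9 cycle genes at the top. Blue circles are called lower, red circles higher and open circles not called. Black bars are list medians, from -0.33 to -0.14, and the dashed line is the median of all tested genes, -0.15. The cycle genes called lower lie at -0.43 and -0.41, and the calls of Slc1a5 (-0.88) and Dbt (-0.97) lie farthest to the left.

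Between libraries, the cycle genes moved in part with IgG replicate 2, which had the highest median FPKM of the tested genes. It held the highest of the 6 values for Idh3a, Idh3g, Ogdh, Suclg1 and Sucla2, while IgG replicate 1 did so for Cs and Fh1, IgG replicate 3 for Idh2 and anti–VEGF-B replicate 1 for Mdh2. The lowest value was in an anti–VEGF-B library for 7 genes and in IgG replicate 3 for Idh3g and Mdh2. Without IgG replicate 2 the median log2 fold change of the 9 genes was -0.14, against -0.11 for all tested genes. The 5 genes most like the 9, by Pearson's r over the 6 libraries with the mean of their z scores, were Bod1 (0.998), Kdm8 (0.994), Rab6b (0.992), Copg1 (0.991) and Rad51d (0.990). Such likeness was common, with an r over 0.9 for 1043 of 8807 other genes (11.8%), and all of these values share the same libraries and the same shift between groups.

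The 9 genes lie on 9 chromosomes, 6 on the plus and 3 on the minus strand of GRCm38, with spans in the table from 7935 bases (Idh3g) to 70824 bases (Sucla2). In RefSeq genes of the same build, 4 of the spans overlap another gene. The spans of Suclg1 and Sucla2 overlap a long noncoding RNA each, and those of Cs and Ogdh overlap noncoding RNA genes or a pseudogene. The libraries were stranded, but how strand was used in quantification is not given in the sources used here, so the values of these 4 genes may hold reads of their neighbours. Fh1, Idh3a, Idh2, Idh3g and Mdh2 had no such overlap.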

How the data were processed

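RNA was measured in 6 libraries, 3 per treatment, grouped by their labels. The authors deposited 1 table of FPKM per gene, from reads aligned to GRCm38 by hisat2 and quantified by StringTie and Ballgown, listing protein-coding genes. It is named as raw data, but its values are not whole numbers, so they were used as FPKM and no count model was run. No normalization between libraries is stated. Among genes under 0.3 FPKM, at most 1.37% shared a ratio between 2 libraries, so whole reads were not recovered, depth is unknown and errors are those between replicates. All 6 columns of values were matched to samples, and 0 other columns of values per sample were present.

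log2(FPKM + 1) of genes averaging 1 FPKM or more (8816) was fitted with limma 3.58.1 (empirical Bayes with trend, R 4.3.3), without covariates, and p-values were adjusted over all of them. Shares and ratios within libraries were compared by exact two-sided permutation. The genes named were all 9 members, the other mitochondrial cycle enzymes and, of the related lists, called genes and at most the 6 with the largest change per list. The 10 symbols that occur more than once were not used. Members and lists were chosen with earlier results of these data known. Alternatives changed scaling, pseudocount, filter, moderation, replicate block and libraries. The 8 added ratios, the level classes, the paired changes under other scalings and the reading of the fit without IgG replicate 3 were chosen after seeing the data. Scripts were tested on simulated data. Promoter motifs were planned but not analysed here, and some genes that were tested and counted are not reported here.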

Additional observations from a re-analysis of the deposited data

How the results depend on the processing

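Of the 9 cycle genes, 2 were called as deposited, and the same number with a pseudocount of 0.1 FPKM, with no filter and with empirical Bayes without trend. The number was 0 after quantile normalization, cyclic loess, a mean of at least 5 FPKM (6 genes tested) or no moderation of the variance, and 1 after median centring (Mdh2) or Actb scaling (Fh1). Leaving out 1 library gave 0 to 3, with 3 without IgG replicate 1 (Idh2, Idh3a and Fh1), 0 without anti–VEGF-B replicate 3 and 1 (Fh1) without each other library. The median log2 fold change of the 9 genes, -0.25, was -0.058 after quantile normalization, -0.046 after median centring, -0.067 after loess and -0.072 at a mean of at least 5 FPKM, and -0.29 to -0.14 without 1 library. Over all genes 2528 were called, against 1674 with Actb scaling, 1331 of 4927 at a mean of at least 5 FPKM and 12 without moderation, and 859 to 2475 without 1 library, lowest without anti–VEGF-B replicate 3. These causes were not tested, beyond the fewer genes or libraries in a fit.

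Signs turned after quantile normalization for Idh3g (0.054), Sucla2 (0.11) and Sdhc (0.060), after loess for the same 3 (0.044, 0.10 and 0.050), after median centring for Cs (0.17), Idh3g (0.15), Sucla2 (0.11), Dld (0.063), Sdhc (0.081) and Sdhd (0.056), and after Actb scaling for Cs (0.035) and Idh3g (0.0099). Without 1 library Cs ran from -0.068 to 0.037 and Idh3g from -0.11 to 0.031. Against the sum of all 18 mitochondrial cycle genes the difference in share was -0.27 points for Idh2, -0.22 for Idh3a, -0.39 for Ogdh, -0.26 for Suclg1, -0.33 for Fh1 and 1.83 for Mdh2, in the same directions.

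The labels do not say whether same-numbered libraries were paired. The deviations of same-numbered libraries correlated at -0.030, 0.11 and 0.089, and those of differently numbered ones at -0.17 to 0.10. With 3 libraries per group these values cannot decide whether there was a pairing. With the replicate block 2578 genes and 1 cycle gene (Fh1, adjusted p = 0.0221) were called, and Idh3a was at 0.0502. Depth is unknown, so values near 1 FPKM carry an unstated counting error.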
